A study of Mus musculus with 29 samples.

Results

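Interferon-stimulated genes are the genes that cells switch on after an interferon binds its receptor. A list of 39 of them was followed in mouse lung: 22 type I responders, 8 GTPases induced by interferon-gamma, and 9 other members, most of them in antigen processing, transcription or membrane defence. Each gene was represented by its brightest probe among those whose accession matched the gene, and 37 of the 39 had such a probe among the 15345 genes tested. Mx1 and Mx2 were matched to no probe and were not analysed here. All 37 passed the filter on dim signal and were well above background on every array with a value, so no member was kept through its high group alone.

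The lungs came from C57BL/6 mice aged 6 to 8 weeks that were wild type (WT) or Klf15-/- (KO) and had received saline or 2.5 mg/kg dexamethasone, a synthetic glucocorticoid, 4 or 8 h earlier. At 4 h there were 4 wild-type and 3 knockout arrays with saline and 4 of each genotype with the steroid. At 8 h there were 3 wild-type and 4 knockout arrays with saline, and again 3 and 4 with the steroid. Klf15 encodes a Krüppel-like transcription factor that glucocorticoids induce, and by its title the series concerns how the glucocorticoid receptor and Klf15 together control the dynamics of expression. The labels name no infection or interferon treatment, and the protocol speaks of biological quadruplicates, so each array was counted as 1 replicate.

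Type I interferons act through Ifnar1 and Ifnar2 and the kinases Tyk2 and Jak1. They activate a complex holding Stat2 and Irf9 that binds the interferon-stimulated response element (ISRE) of antiviral genes such as the Ifit, Oas and Isg15 genes. Interferon-gamma, made mainly by natural killer and T cells, acts through Ifngr1 and Ifngr2 and the kinases Jak1 and Jak2, and leads to binding at the gamma-activated site (GAS). It induces Irf1, antigen-processing genes and the guanylate-binding (Gbp) and immunity-related (Irgm, Igtp, Iigp1) GTPases, which attack vacuoles holding intracellular pathogens. Many genes answer to both interferons, so the families named here overlap in their control.

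Values are log2 of the processed probe signal minus the 75th percentile of the same array, and a difference is dexamethasone minus saline, or knockout minus wild type, on that log2 scale. The Klf15 probe separated the genotypes: it lay between -0.89 and 1.37 on knockout arrays and between 1.95 and 4.29 on wild-type arrays. Tsc22d3, a direct target of the glucocorticoid receptor, was higher with dexamethasone in each of the 4 comparisons, by 0.47 to 1.70. Fkbp5, another such target, was higher by 3.07, 4.22 and 1.31 in wild type at 4 h and in the knockout at 4 and 8 h, and read -0.02 in wild type at 8 h. Between 75.5 and 88.5% of an array's spots were well above background, and precision is limited by how many arrays each group holds. The 7 knockout saline arrays stood apart in a technical measure, the log2 ratio of a gene's brighter to its dimmer probe. Each gene's ratio was taken relative to its mean over all arrays and averaged over 2546 genes. The highest value of the 7 arrays was -0.12 and the lowest of the other 22 was -0.08. The part of this measure in any comparison that uses the 7 arrays was not tested. Lung is a mixture of cells, so a lower value can come from fewer cells of a type or from less RNA per cell, which these arrays cannot tell apart.

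One array stood apart. Replicate 49 of the wild-type dexamethasone group at 4 h had GTPase signals above every saline array of its genotype and time for 8 of 8 GTPases, whereas the other 3 arrays of its group were below every one of those saline arrays for the same 8. It carried the steroid's mark: its Klf15 value of 4.18 lay within the 4.11 to 4.29 of its group, and its Tsc22d3 value of 5.04 within 5.04 to 5.18. Natural killer cell, neutrophil and further interferon-gamma-induced genes also stood apart on it, with values given beside the families. It was left out only in comparisons that use its group. Where leaving it out there changes a call or moves a value by over 1.5 times, the value without it is given. In the other comparisons it still enters the spread that all groups share in the fit, and its part in their calls and misses was not tested.

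Dexamethasone lowered most interferon-stimulated genes in both genotypes and at both times. In wild type at 4 h, 28 of the 37 members were lower at an adjusted p under 0.05 and 1 was higher. Of all genes tested in that comparison, 22.2% were lower and 14.4% higher. Without replicate 49, 32 members were lower and 1 higher, against 19.8% of all genes lower. At 8 h in wild type 30 members were lower and 0 higher by limma (0 higher at an unadjusted p under 0.05 too), where 14.3% of all genes were lower and 9.23% higher. In the knockout 32 were lower and 1 higher at 4 h, with 17.8% of all genes lower and 24.7% higher, and 30 were lower and 1 higher at 8 h, with 17.7% lower and 24.9% higher. The median member fell by 0.77, 1.02, 0.89 and 0.86 in these comparisons, in the order wild type at 4 and 8 h, then knockout at 4 and 8 h, while the median over all genes was -0.03, -0.06, 0.05 and 0.10. Falls of at least 2-fold were called for 10, 18, 15 and 13 members, against 4.11%, 3.36%, 3.78% and 3.33% of all genes.

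The same members recurred. Lower calls were made in all 4 comparisons for 25 of the 37: 15 type I responders, 5 GTPases and 5 other members. The exceptions with no lower call in any comparison were Rsad2, which encodes the antiviral enzyme viperin, and Trim25, a ubiquitin ligase of the RIG-I pathway. Dexamethasone and saline arrays did not overlap for 16 members in wild type at 4 h, 35 at 8 h, and 33 and 30 in the knockout, where 33.6%, 38%, 45.1% and 36.7% of all genes did not overlap. The count in wild type at 4 h included 0 of 8 GTPases, and without replicate 49 it was 34 members, 8 of 8 GTPases among them, against 37.5% of all genes. When the fit held only the wild-type saline and dexamethasone arrays at 4 h, 16 members were lower and 1 higher, with 12 of 20 type I responders and 0 of 8 GTPases among the lower. The shares of all genes given above come from the fit of all 29 arrays and cannot be set beside this count.

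**Figure D1:**
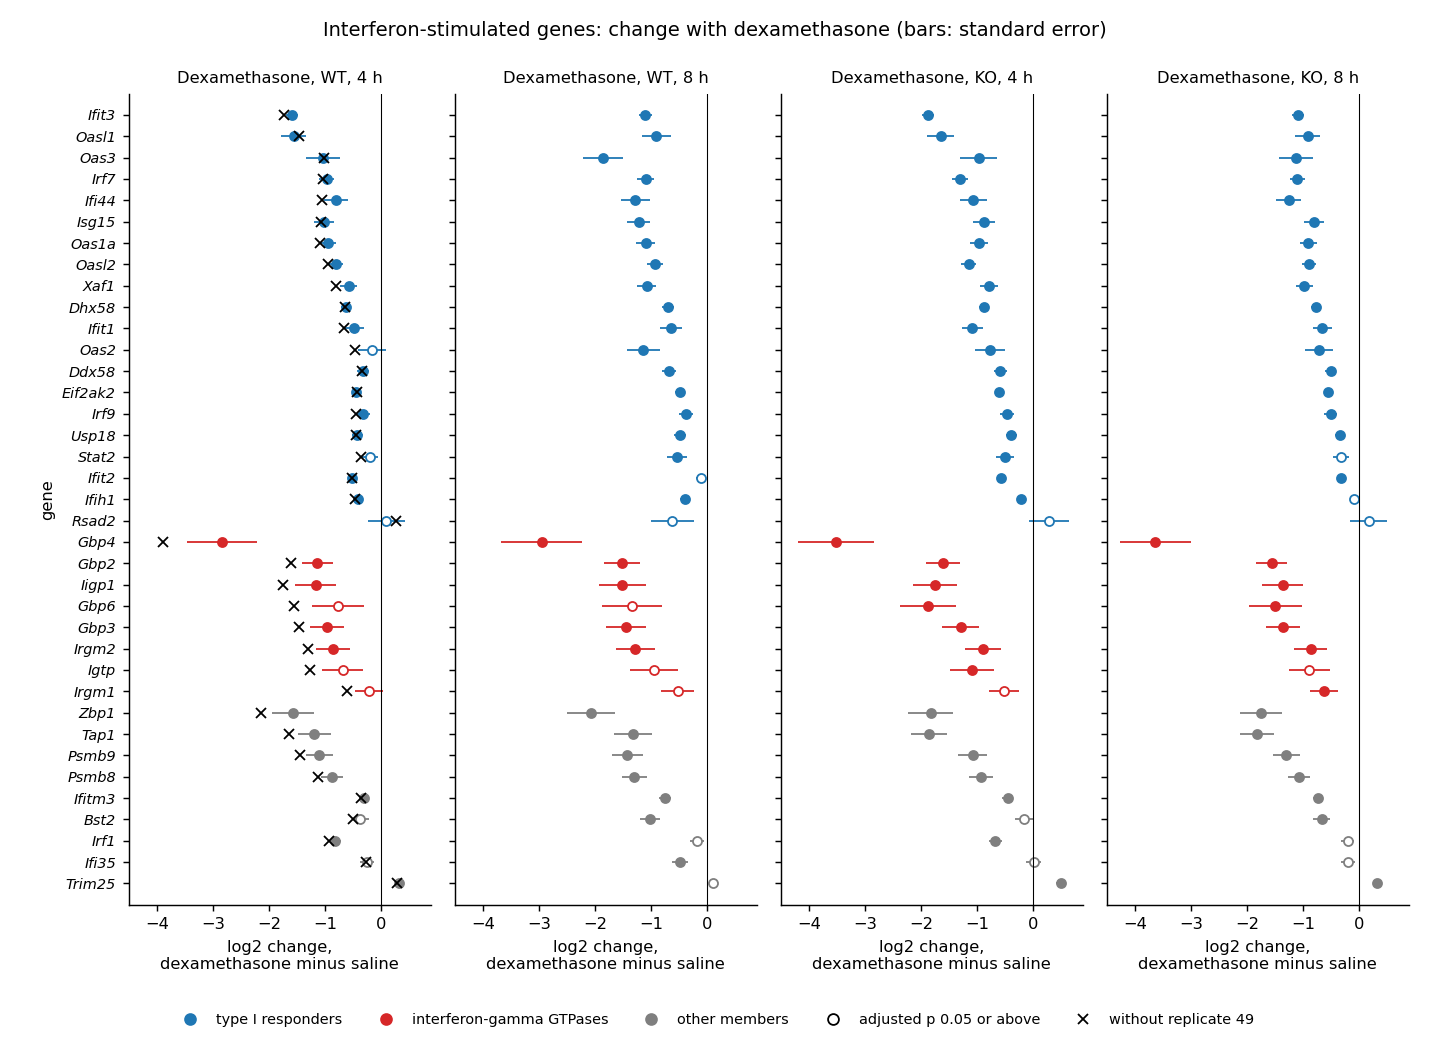
Log2 change with dexamethasone (x axis) for each of the 37 members (y axis) in the 4 comparisons, with standard errors as bars; filled circles had an adjusted p under 0.05, open circles did not, and crosses give the wild-type 4 h values without replicate 49. Most points lie left of 0, Gbp4 lies farthest left in each panel, and Trim25 is the member called higher.

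Promoter stretches are printed for 6 members that hold an ISRE core, taken in order of mean signal, to show elements of the kind that interferon-activated factors are known to bind. RefSeq promoters (GRCm38.p6) were at hand for 30 of the 39 members and were searched over the 250 bases before the start. The ISRE core was GAAA, any 2 bases and GAAA again, or the same on the other strand (TTTC, any 2 bases, TTTC). The GAS was the palindrome of TTC, any 3 bases and GAA, and the glucocorticoid response element the palindrome of GNACA, any 3 bases and TGTNC, so that both strands were covered. Capitals mark ISRE and GAS matches, which can overlap, and each line is the gene's strand, 5′ to 3′, with positions counted from the start.

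The antiviral gene Ifit3 (-191 to -78) holds 2 ISRE cores.
Ifit3: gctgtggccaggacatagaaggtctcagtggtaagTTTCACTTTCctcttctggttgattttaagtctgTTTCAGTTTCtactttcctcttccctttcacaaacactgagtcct
The GTPase Gbp2 (-94 to -15) holds 1 ISRE core.
Gbp2: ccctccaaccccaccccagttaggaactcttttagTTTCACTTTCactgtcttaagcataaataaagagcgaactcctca
The GTPases Irgm2 (-110 to -20) and Igtp (-80 to -1) each hold a GAS followed by an ISRE core, in closely similar surroundings.
Irgm2: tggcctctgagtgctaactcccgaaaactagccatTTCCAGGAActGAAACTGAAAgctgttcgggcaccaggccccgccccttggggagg
Igtp: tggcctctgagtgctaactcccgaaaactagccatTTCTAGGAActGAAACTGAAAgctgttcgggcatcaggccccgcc
The GTPase Irgm1 (-65 to -1) holds 2 overlapping ISRE cores.
Irgm1: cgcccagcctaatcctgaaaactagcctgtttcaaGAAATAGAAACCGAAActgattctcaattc
The tetherin gene Bst2 (-171 to -80) holds a GAS and 2 ISRE cores that overlap each other.
Bst2: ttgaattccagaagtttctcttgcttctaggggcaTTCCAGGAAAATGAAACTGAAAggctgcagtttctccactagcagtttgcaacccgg

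An ISRE core was found in 13 of the 30 members, 43.3%, against 936 of 27025 genes, 3.46%. It was found in 7 of 17 type I responders, 5 of 5 GTPases and 1 of 8 other members. A GAS was found in 8 of the 30, 26.7%, against 8.13% of all genes, and in the members it lay upstream of Bst2, Eif2ak2, Ifit2, Igtp, Irf1, Irgm2, Oas1a and Psmb8. No glucocorticoid response element of this spelling lay in these windows of the 30 members, and 0.44% of all genes held one. A match describes the letters alone.

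Among the type I responders 17 and 18 of 20 fell in wild type at 4 and 8 h, and 19 and 17 in the knockout, with medians of -0.54, -0.80, -0.83 and -0.73. Without replicate 49 the median in wild type at 4 h was -0.64. Ifit3, an antiviral gene of the Ifit family, had the lowest p of all members in each comparison. In wild type Ifit3 read 2.38, 2.30, 2.36 and 2.39 with saline against 1.19, 0.77, 0.49 and 0.63 with dexamethasone at 4 h, and 2.83, 2.77 and 2.77 against 1.85, 1.67 and 1.57 at 8 h. In the knockout it read 2.95, 2.60 and 2.72 against 0.78, 0.77, 0.97 and 1.0 at 4 h, and 2.72, 2.77, 2.87 and 2.81 against 1.72, 1.71, 1.66 and 1.76 at 8 h. Saline and dexamethasone arrays were far apart in all 4 pairs, and replicate 49 (1.19) was the highest of its group yet well under saline. The changes were -1.59 ± 0.10 (SE, adjusted p = 3.53e-11, 3.01-fold lower), -1.10 ± 0.12, -1.88 ± 0.11 and -1.08 ± 0.10.

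Oasl2, an oligoadenylate synthetase-like protein, read 1.5, 1.52, 1.42 and 1.15 with saline against 0.99, 0.55, 0.47 and 0.36 with dexamethasone in wild type at 4 h, and 1.35, 1.12 and 1.19 against 0.29, 0.31 and 0.27 at 8 h. Knockout arrays gave 1.83, 1.66 and 1.82 against 0.41, 0.84, 0.61 and 0.64 at 4 h, and 1.29, 1.42, 1.77 and 1.56 against 0.50, 0.51, 0.67 and 0.80 at 8 h. No pair of groups overlapped, and the changes were -0.81 ± 0.12, -0.93 ± 0.14, -1.15 ± 0.13 and -0.89 ± 0.12 (SE). The largest of the 4 adjusted p was 4.29e-05. The Oas enzymes themselves, which activate RNase L on sensing double-stranded RNA, fell too. Oas1a changed by -0.95, -1.09, -0.96 and -0.90 and Oas3 by -1.03, -1.85, -0.97 and -1.12. Oas2 read -0.16 in wild type at 4 h, short of the threshold (adjusted p = 0.681), where replicate 49 read -0.22 and the other 3 between -1.53 and -1.32 (-0.46 without replicate 49, adjusted p = 0.126), and it fell by 1.14, 0.77 and 0.71 in the other comparisons. Oasl1, which restrains Irf7 translation, fell by 1.56 and 1.65 at 4 h and by 0.90 and 0.91 at 8 h in wild type and knockout.

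The factors that carry the type I signal changed by less than the type I median. Irf9, the DNA-binding part of its complex with Stat2, read 1.27, 1.36, 1.24 and 1.14 with saline against 1.32, 0.92, 0.87 and 0.65 with dexamethasone in wild type at 4 h, and 1.0, 1.06 and 1.0 against 0.60, 0.74 and 0.61 at 8 h. In the knockout Irf9 read 1.35, 1.29 and 1.15 against 0.63, 0.97, 0.77 and 0.82 at 4 h, and 1.22, 1.07, 1.37 and 1.38 against 0.81, 0.53, 0.68 and 1.01 at 8 h. The groups overlapped in wild type at 4 h, through replicate 49 (1.32), and nowhere else. The changes were -0.31 ± 0.11 (SE, adjusted p = 0.0343), -0.37, -0.47 and -0.50. Stat2, its partner, fell in wild type at 8 h (-0.53 ± 0.17, adjusted p = 0.0269) and in the knockout at 4 h (-0.50 ± 0.16, adjusted p = 0.0156), and read -0.20 and -0.32 without passing in the other comparisons (-0.36 in wild type at 4 h without replicate 49, adjusted p = 0.0536).

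Irf7, the transcription factor that amplifies the type I response and is itself induced by it, fell by about 1 log2 unit or more. In wild type Irf7 read -1.33, -1.05, -1.38 and -1.63 with saline against -2.13, -2.08, -2.32 and -2.73 with dexamethasone at 4 h, and -1.84, -1.58 and -2.04 against -2.95, -2.93 and -2.86 at 8 h. In knockout lung the values were -0.74, -0.89 and -0.93 against -2.14, -1.99, -2.28 and -2.19 at 4 h, and -0.85, -0.99, -1.07 and -1.07 against -1.93, -2.37, -2.01 and -2.05 at 8 h. All pairs were separate, and replicate 49 (-2.13) lay among its group. The changes were -0.97, -1.09, -1.29 and -1.10, each with an SE of 0.13 to 0.15, and the largest adjusted p was 1.41e-05.

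The cytosolic RNA sensors fell by smaller amounts. Dhx58, the regulatory sensor LGP2, read -1.23, -1.15, -1.24 and -1.35 with saline against -1.82, -1.88, -1.83 and -1.94 with dexamethasone in wild type at 4 h, and -1.31, -1.43 and -1.33 against -1.87, -2.13 and -2.17 at 8 h. Without Klf15 the arrays read -0.68, -1.02 and -0.81 against -1.80, -1.82, -1.52 and -1.69 at 4 h, and -1.25, -1.33, -0.96 and -1.23 against -2.02, -2.04, -1.94 and -1.79 at 8 h. No pair overlapped, and the changes were -0.62, -0.69, -0.87 and -0.76. Ddx58, which encodes RIG-I, fell by 0.32, 0.68, 0.58 and 0.50. Ifih1, which encodes MDA5, fell by 0.40, 0.39 and 0.21 in wild type at both times and in the knockout at 4 h, and read -0.08 without passing in the knockout at 8 h. Eif2ak2, the kinase PKR that halts translation on double-stranded RNA, fell by 0.44, 0.48, 0.60 and 0.55.

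Of the remaining type I responders, Isg15, the ubiquitin-like modifier, changed by -1.01, -1.22, -0.87 and -0.80 and Usp18, the protease that removes it, by -0.42, -0.48, -0.38 and -0.33. Ifi44 changed by -0.80, -1.28, -1.06 and -1.25 and Xaf1, a pro-apoptotic gene, by -0.57, -1.08, -0.79 and -0.97. Ifit1 changed by -0.48, -0.64, -1.08 and -0.65, and in wild type at 4 h its groups overlapped through replicate 49 (-1.19). Ifit2 fell by 0.51 and 0.56 at 4 h in wild type and knockout and by 0.33 in the knockout at 8 h, and read -0.11 in wild type at 8 h. Rsad2 differed in no direction that passed: its changes were 0.10, -0.62, 0.29 and 0.17 with SEs of 0.33 to 0.38 (0.27 in wild type at 4 h without replicate 49). With dexamethasone at 4 h it ranged from -0.52 to 0.98 in wild type and from -0.91 to 0.93 in the knockout, wider than any saline group.

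**Figure D2:**
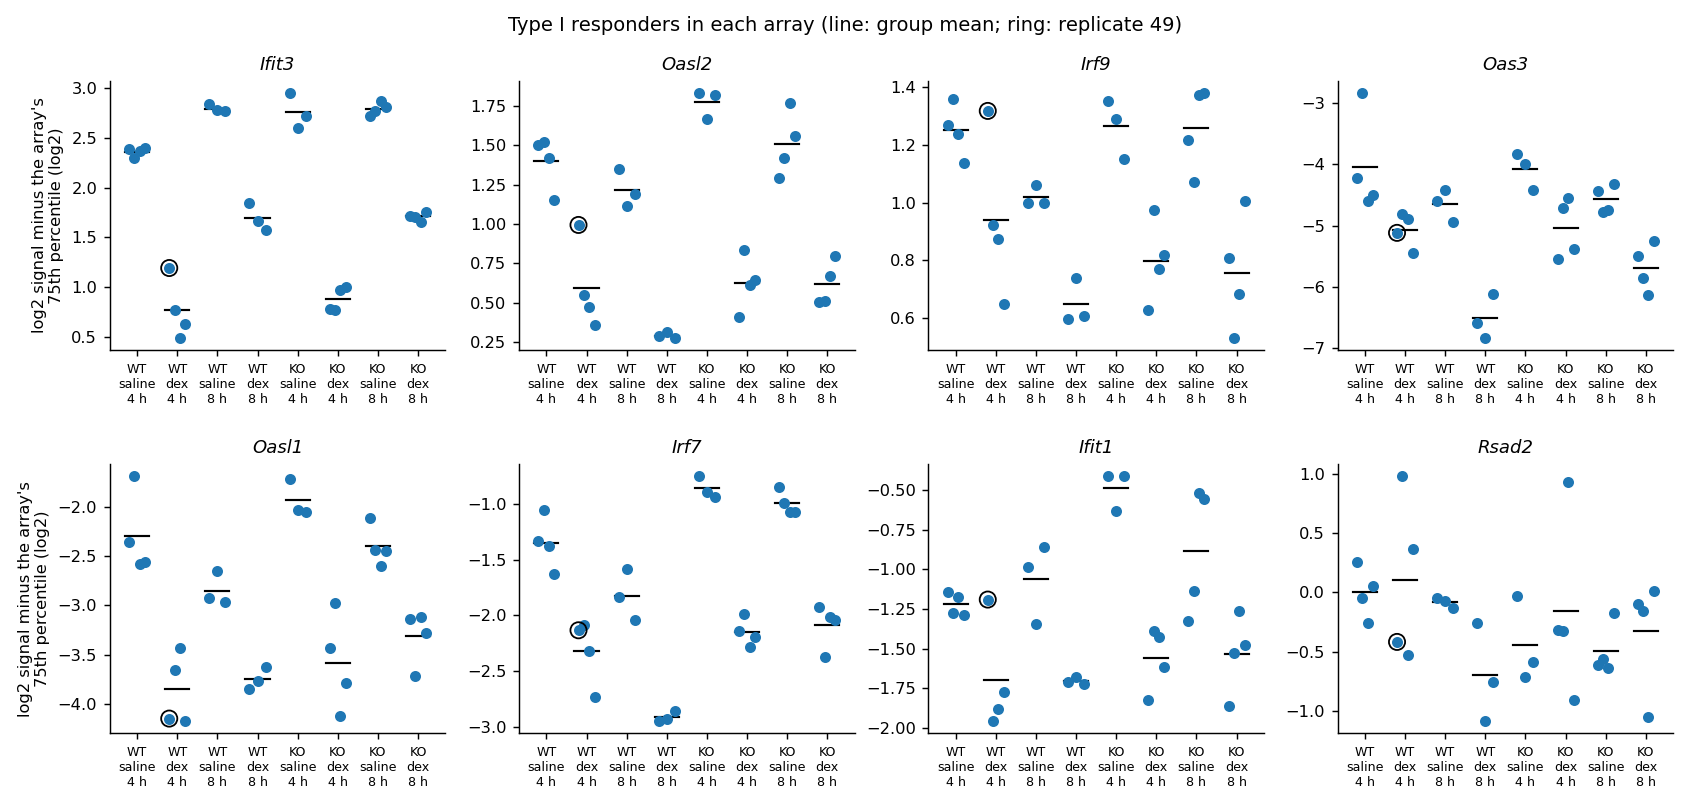
Log2 signal minus the array's 75th percentile (y axis) for 8 type I responders on each array, by group (x axis); dots are arrays, lines group means and the ring marks replicate 49. Dexamethasone dots lie under saline dots for Ifit3, Oasl2 and Irf7 in each pair of groups, and Rsad2 shows no such separation in the knockout or at 4 h.

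The median fall was deepest among the GTPases. Of the 8, 5 and 5 were lower in wild type at 4 and 8 h and 7 and 7 in the knockout, with medians of -0.91, -1.39, -1.45 and -1.35, and without replicate 49 the count in wild type at 4 h was 8 of 8 and the median -1.51. That count was 2 of 8 without replicate 50, 51 or 52, the other dexamethasone arrays of the group, and in the knockout at 8 h it was 4 of 8 without saline replicate 47. Gbp4, shown here because its change was the largest, read 0.28, 0.28, -0.01 and 0.35 with saline against 0.56, -3.26, -4.09 and -3.68 with dexamethasone in wild type at 4 h, and -0.51, -1.04 and -0.91 against -4.38, -3.42 and -3.51 at 8 h. In the knockout Gbp4 read 0.54, -0.24 and -0.06 against -3.86, -2.64, -3.60 and -3.67 at 4 h, and -0.93, -0.95, 0.65 and -0.22 against -4.36, -3.92, -3.65 and -4.06 at 8 h. Replicate 49 (0.56) was the one dexamethasone array at the saline level. The changes were -2.84 ± 0.63 (SE, adjusted p = 0.000887, 7.16-fold lower), -2.95 ± 0.72, -3.52 ± 0.68 and -3.63 ± 0.63 (12.4-fold lower), and -3.90 in wild type at 4 h without replicate 49.

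Irgm2, a regulator of the other immunity-related GTPases on host membranes, read 3.19, 3.18, 2.90 and 3.39 with saline against 3.67, 2.12, 1.84 and 1.61 with dexamethasone in wild type at 4 h, and 3.08, 2.79 and 2.84 against 1.59, 1.67 and 1.63 at 8 h. In the knockout it read 3.26, 2.45 and 2.80 against 1.94, 2.39, 1.82 and 1.67 at 4 h, and 2.54, 2.34, 3.26 and 2.88 against 1.73, 1.76, 1.94 and 2.15 at 8 h. Apart from replicate 49 no dexamethasone array reached saline, although in the knockout at 4 h the gap was from 2.39 to 2.45. The changes were -0.85 ± 0.30 (SE, adjusted p = 0.0274), -1.28 ± 0.34, -0.89 ± 0.32 and -0.86 ± 0.30, and -1.31 in wild type at 4 h without replicate 49.

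Igtp, also called Irgm3, read 2.86, 2.99, 2.78 and 3.11 with saline against 3.99, 1.81, 1.46 and 1.76 with dexamethasone in wild type at 4 h, and 2.69, 2.25 and 2.38 against 1.36, 1.54 and 1.59 at 8 h. Knockout arrays gave 3.37, 2.38 and 2.65 against 1.70, 2.06, 1.60 and 1.51 at 4 h, and 2.12, 2.03, 3.25 and 2.78 against 1.36, 1.69, 1.68 and 1.92 at 8 h. The groups were separate in 3 of the 4 pairs. The SD within a group ran from 0.14 to 0.58 with saline. It was 1.17 in wild-type dexamethasone at 4 h, the group of replicate 49. In the fit all 8 groups share 1 estimate of the spread. With all arrays Igtp passed in the knockout at 4 h alone (-1.09 ± 0.40, adjusted p = 0.0312). Its changes elsewhere were -0.68, -0.94 and -0.88, and without replicate 49 it passed in wild type at 4 h (-1.26, adjusted p = 0.000268).

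Gbp2, which helps open pathogen vacuoles, read 2.56, 2.78, 2.44 and 2.59 with saline against 2.88, 1.03, 0.95 and 0.97 with dexamethasone in wild type at 4 h, and 2.55, 2.52 and 2.65 against 0.86, 1.21 and 1.11 at 8 h. In knockout lung the values were 2.88, 2.49 and 2.52 against 1.15, 1.23, 0.87 and 0.86 at 4 h, and 2.26, 2.42, 3.05 and 2.32 against 0.77, 0.82, 1.03 and 1.19 at 8 h. Replicate 49 again lay above its saline group and the other 14 dexamethasone arrays far under it. The changes were -1.13 ± 0.28 (SE, adjusted p = 0.00255), -1.51 ± 0.32, -1.61 ± 0.30 and -1.56 ± 0.28. Gbp3 changed by -0.97 (-1.46 without replicate 49), -1.45, -1.28 and -1.35, and Iigp1 by -1.17 (-1.75 without replicate 49), -1.51, -1.74 and -1.36, and both passed in all 4. Gbp6 passed in the knockout (-1.88 and -1.49) and not in wild type (-0.77, and -1.33 with an adjusted p of 0.0775), though without replicate 49 it passed there at 4 h (-1.56, adjusted p = 3.89e-05). Irgm1 changed least, by -0.21, -0.52, -0.52 and -0.62, and passed in the knockout at 8 h (adjusted p = 0.0481) and, without replicate 49, in wild type at 4 h (-0.60, adjusted p = 0.00632). Probes of these paralogous families may share signal between near-identical members, which was not tested.

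**Figure D3:**
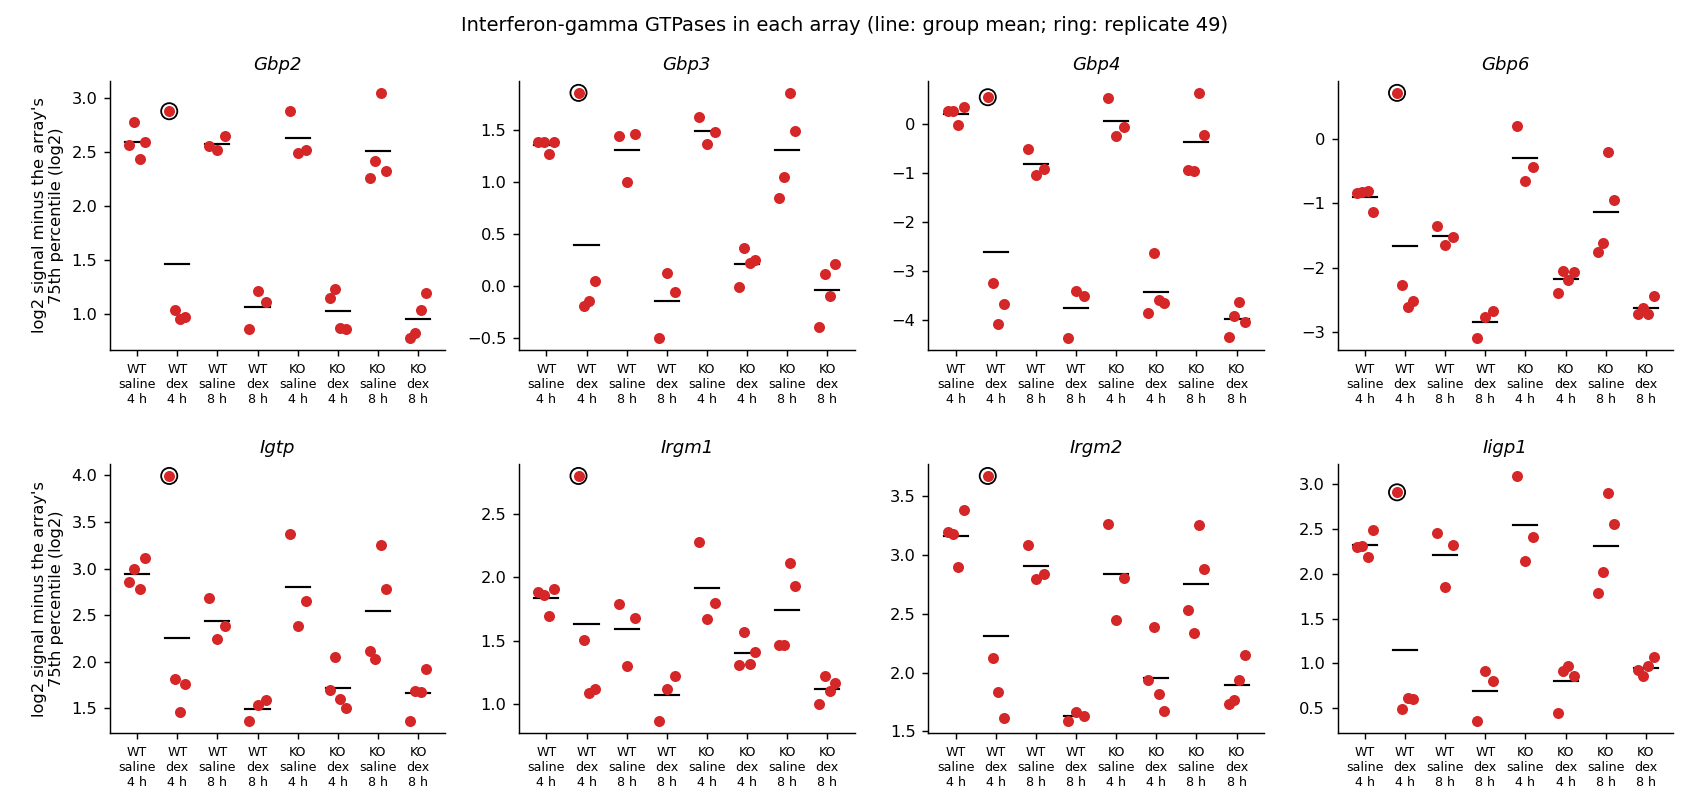
Log2 signal minus the array's 75th percentile (y axis) for the 8 GTPases on each array, by group (x axis); dots are arrays, lines group means and the ring marks replicate 49. For each gene the ringed array is at or above the wild-type saline arrays, and the other dexamethasone arrays lie under the saline arrays of their pair.

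The GTPases rose and fell together between arrays of a group. In knockout saline at 4 h, replicate 41 was the highest of its group for 8 of 8 GTPases and replicate 43 the lowest for 8 of 8. In knockout saline at 8 h, replicate 47 was the highest for 8 of 8, and in wild-type saline at 8 h replicate 38 was the lowest for 8 of 8. The type I responders followed less closely: replicate 41 was the highest for 14 of 20 and replicate 47 for 8 of 20. The mean of the 8 GTPases, each taken relative to its mean over the 14 saline arrays, ran from -0.52 to 0.59 over the saline arrays, and that of the 20 type I responders from -0.21 to 0.33. Ifng, the gene for interferon-gamma itself, was highest on the same arrays, at -3.66 on replicate 41 and -2.63 on replicate 47, against -4.06 to -3.89 and -4.90 to -4.25 on the others of their groups. Natural killer cell markers were also high on replicates 41 and 47, the highest of their groups for 8 of 10 and 9 of 10. They did not follow the arrays lowest for the GTPases. Replicate 43 was the lowest for 3 of 10 markers, and replicate 38 was the lowest for 2 and the highest for 5. The part of these markers was not tested.

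Replicate 49 showed the sharpest split between the families. Its mean was 0.86 over the GTPases, against -1.67 to -1.41 on the other 3 arrays of its group, and -0.42 over the type I responders, against -0.84 to -0.63. It exceeded every wild-type saline array at 4 h for 8 of 8 GTPases, 2 of 20 type I responders and 2 of 9 other members. It was below every one of those arrays for 0, 13 and 3. The median gap to the other 3 dexamethasone arrays was 2.14 for the GTPases, 0.25 for the type I responders and 0.52 for the other members. For Gbp6 it read 0.71 against -2.60 to -2.27 on the other 3, and for Irgm1 2.80 against 1.08 to 1.51. On the same array Oasl1 (-4.15) and Isg15 (-0.79) lay within the range of the other 3 and Dhx58 (-1.82) below every saline array, whereas Stat2 (0.38) and Xaf1 (0.87) lay in or above the saline range.

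Other values moved with replicate 49. Of 23 further interferon-gamma-induced genes outside the members, 20 were higher on it than on the other 3 arrays of its group and 12 were above every wild-type saline array at 4 h. Its Ifng value was -4.66, above the -6.16 to -5.82 of the other 3 and below the -4.09 to -3.37 of wild-type saline at 4 h. Of 10 natural killer cell markers, 10 were higher on it than on the other 3 arrays, with a mean of -0.61 against -2.34 to -1.46. Of these markers 9 were still below every wild-type saline array at 4 h. Of 10 T cell markers 2, and of 8 B cell markers 1, were higher on it than on the other 3, and its neutrophil marker mean was -1.16, the lowest of its group. The part of these values in its GTPase signal was not tested. Replicate 49 shared its slide with knockout saline replicate 41 (4 h), the array with the highest GTPase mean of its group, with wild-type saline replicate 37 (8 h), highest of its group for 6 of 8 GTPases, and with knockout dexamethasone replicate 62 (8 h), highest for 1 of 8. Their GTPase means were 0.59, -0.04 and -1.57. That slide held no saline array of the same genotype and time, so the slide's part was not tested. Within the slides that held both groups, which leave out replicate 49, the median GTPase change was -1.43 on slide 3 and -1.45 on slide 7, and the median type I change was -0.49 and -0.60.

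**Figure D4:**
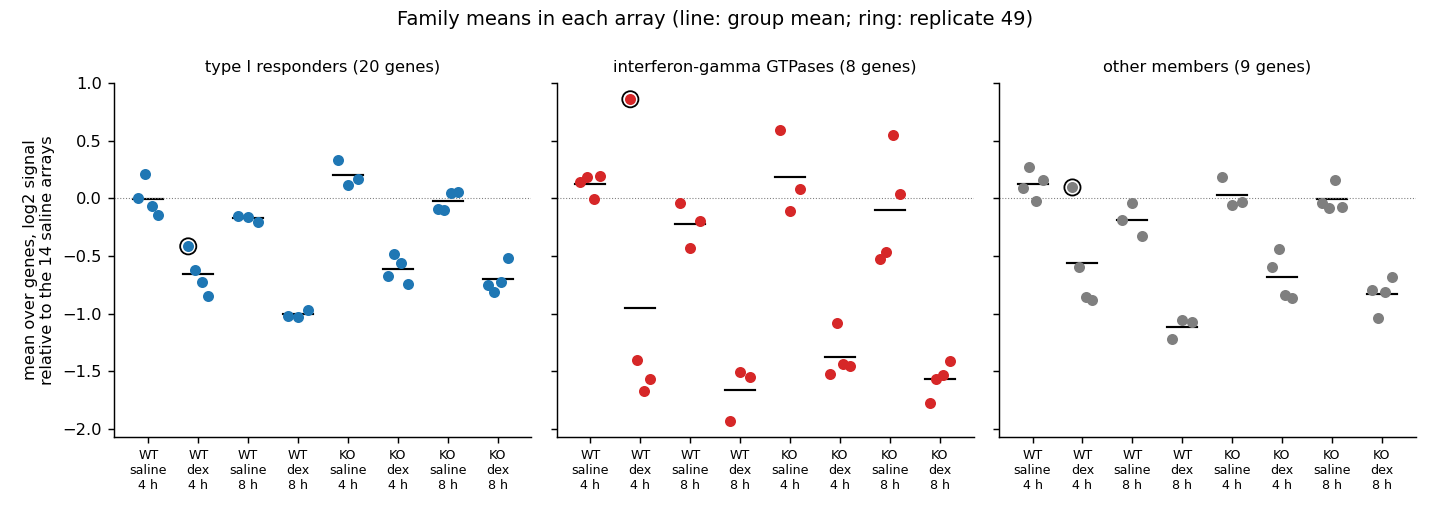
Mean over the genes of each family on each array, in log2 relative to each gene's mean over the 14 saline arrays (y axis), by group (x axis); dots are arrays, lines group means and the ring marks replicate 49. The ringed array reads 0.86 for the GTPases, above the other 28 arrays, and -0.42 for the type I responders, below the 14 saline arrays.

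Among the other members 6, 7, 6 and 6 of 9 were lower, and Zbp1 and the antigen-processing genes had the largest falls. Zbp1, a sensor of Z-form nucleic acid, changed by -1.57, -2.07, -1.82 and -1.75, and by -2.14 in wild type at 4 h without replicate 49. Tap1, which carries peptides into the endoplasmic reticulum, changed by -1.19, -1.32, -1.85 and -1.82. The immunoproteasome subunits Psmb8 (-0.87, -1.29, -0.93 and -1.08) and Psmb9 (-1.10, -1.42, -1.07 and -1.29) fell in all 4 comparisons. On replicate 49 Tap1 (-0.17), Psmb8 (3.32), Psmb9 (3.34) and Zbp1 (-0.56) were in or above the range of their saline group.

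Ifitm3, a membrane protein that blocks viral entry, read 5.42, 5.24 and 5.22 with saline, with a value missing on 1 array, against 5.16, 5.09, 4.82 and 4.91 with dexamethasone in wild type at 4 h, and 5.15, 5.31 and 5.15 against 4.34, 4.60 and 4.43 at 8 h. Without Klf15 the arrays read 5.33, 5.34 and 5.34 against 4.99, 4.84 and 4.82, again with 1 value missing, at 4 h, and 5.31, 5.31, 5.42 and 5.16 against 4.53, 4.44, 4.50 and 4.82 at 8 h. No pair of Ifitm3 groups overlapped, replicate 49 (5.16) came close to saline, and the falls were 0.30, 0.75, 0.45 and 0.72. Bst2, which encodes the tethering factor tetherin, changed by -0.37 and -0.16 at 4 h without passing in either genotype, and by -1.01 and -0.66 at 8 h, both passing. Without replicate 49 it passed in wild type at 4 h (-0.50, adjusted p = 0.013).

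Irf1, the transcription factor that interferon-gamma induces early, fell at 4 h and not at 8 h. In wild type Irf1 read 4.23, 4.10, 3.86 and 4.14 with saline against 3.60, 3.07, 3.19 and 3.21 with dexamethasone at 4 h, and 3.85, 3.78 and 3.79 against 3.52, 3.74 and 3.64 at 8 h. In the knockout it read 3.97, 3.79 and 3.79 against 3.09, 3.38, 3.08 and 3.17 at 4 h, and 3.77, 3.54, 3.82 and 3.84 against 3.30, 3.48, 3.64 and 3.74 at 8 h. The groups were apart at 4 h in both genotypes and close or overlapping at 8 h. Irf1 fell at 4 h by 0.82 ± 0.11 (SE, adjusted p = 2.63e-06) and 0.67 ± 0.12, and at 8 h the values of -0.17 and -0.20 did not pass. Ifi35 fell in wild type at 8 h (-0.47 ± 0.15, adjusted p = 0.0211) and read -0.25, 0.02 and -0.20 in the other comparisons. Trim25 was higher in wild type at 4 h (0.32 ± 0.07) and in the knockout at 4 h (0.50 ± 0.08) and 8 h (0.32 ± 0.07), and read 0.11 in wild type at 8 h. With its dimmest probe Trim25 changed by 0.06, 0.16 and -0.058 in the comparisons where it had passed, none of which then passed.

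Set side by side, the median GTPase change was below the median type I change by 0.37 in wild type at 4 h, 0.59 at 8 h, and 0.61 and 0.62 in the knockout at 4 and 8 h. Without replicate 49 the gap in wild type at 4 h was 0.86. The spread of this gap between arrays of a group was 0.41 (SD pooled over the 8 groups), and the gap was not tested, since the genes were chosen with results known. The gap kept its sign in the 4 comparisons under each alternative that was run, from -0.22 to -0.93 in wild type at 4 h. Gbp4 had the largest fall, and every other GTPase but Irgm1 also fell further than the median type I responder in each comparison, though not all of these falls passed.

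For 3 members the effect of dexamethasone differed between the times. A test of the difference between the dexamethasone effects at 8 and 4 h passed in wild type for Irf1 (0.65 ± 0.17, adjusted p = 0.0213) and Ifit2 (0.40 ± 0.11, adjusted p = 0.0299), against 2.84% of all genes higher and 3.12% lower, and in the knockout for Ifit3 (0.79 ± 0.15, adjusted p = 0.00403), against 1.21% higher and 1.84% lower. In each the fall at 4 h was the deeper. The 2 calls in wild type moved with single arrays: leaving out saline replicate 39 at 8 h gave 0, leaving out saline replicate 34 at 4 h gave 5, and leaving out saline replicates 33 or 35 at 4 h, dexamethasone replicate 50 at 4 h or dexamethasone replicate 54 at 8 h gave 1. Without replicate 49 Ifit3 also passed in wild type (0.63, adjusted p = 0.00225). Among the GTPases 0 of 8 passed in either genotype by limma, and 0 had an unadjusted p under 0.05. Between saline at 8 and 4 h, 0 of 37 members passed in wild type and 0 in the knockout by limma, with 6 and 6 at an unadjusted p under 0.05, where 1.28% and 1.08% of all genes passed.

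Few of these genes differed between the genotypes, and the called members were higher in the knockout with the main scaling, though not with each array scaled to its median. With saline at 4 h Ifit1 (0.74 ± 0.19, adjusted p = 0.00797), Irf7 (0.49 ± 0.14), Dhx58 (0.41 ± 0.10), Ifit3 (0.40 ± 0.11) and Oasl2 (0.37 ± 0.13) were higher, 5 of 37, where 5.98% of all genes were higher and 18.6% lower. With saline at 8 h Irf7 alone was higher (0.83 ± 0.14, adjusted p = 0.00121), where 5.14% of all genes were higher and 7.88% lower. With dexamethasone at 4 h 0 of 37 passed by limma (0 at an unadjusted p under 0.05), where 0.899% of all genes passed, and at 8 h Irf7 (0.82 ± 0.14, adjusted p = 0.00128) and Trim25 (0.31 ± 0.08, adjusted p = 0.021) were higher, where 3.02% of all genes were higher and 1.9% lower. Irf7 was thus called in 3 of the 4 genotype comparisons and its arrays did not overlap in those 3; with dexamethasone at 4 h the genotypes read -2.73 to -2.08 in wild type and -2.28 to -1.99 in the knockout. Among the GTPases 0 of 8 passed in any of the 4 by limma, and 0 had an unadjusted p under 0.05.

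These genotype calls rest on few arrays and, with saline, on the knockout arrays whose probe ratio stood apart. With saline at 4 h, leaving out knockout replicate 41 gave 2 calls in place of 5 and leaving out wild-type replicate 36 gave 3. With each array scaled to its median, the median over all genes in that comparison moved from -0.04 to -0.20, and of the 5 calls Ifit1 (0.57) remained, while Irf1 (-0.39) and Trim25 (-0.30) were then lower. With saline at 8 h, leaving out wild-type replicate 38 gave 2 calls. With dexamethasone at 8 h, leaving out wild-type replicates 55 or 56 or knockout replicates 61 or 64 gave 1 call, and leaving out knockout replicate 62 gave 5. With its dimmest probe Trim25 read -0.036 there (adjusted p = 0.914), so that call rests on 1 probe. Irf7 kept its call in each of 13 other ways of processing with saline at 8 h, where its change lay between 0.77 and 0.93. It has 1 probe, so taking the dimmest probe, the mean of probes or another filter could not move its change.

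For the dexamethasone effect itself, no member passed the test of a difference between the genotypes. At 4 h 0 of 37 passed by limma, with 1 at an unadjusted p under 0.05, where 16.3% of all genes passed, and at 8 h 0 of 37, with 1 at an unadjusted p under 0.05, where 5.81% did. The member with the lowest p was Ifit1 at 4 h (-0.60 ± 0.26, adjusted p = 0.118) and Ifih1 at 8 h (0.31 ± 0.11, adjusted p = 0.0992). With its dimmest probe Ifih1 turned and passed, at -0.72 (adjusted p = 0.0263) at 4 h and -0.75 (adjusted p = 0.0415) at 8 h. The GTPase values at 4 h ran from -1.11 to -0.03, and without replicate 49 from -0.32 to 0.42 with a median of 0.13, so their direction rests on that array. The misses do not show that the effects were alike: the standard error of this difference was 0.92 for Gbp4 at 4 h.

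Upstream of the members, the gene for interferon-gamma was lower with dexamethasone. Ifng, well above background on every array, changed by -2.01 ± 0.39 (adjusted p = 0.000253), -1.97, -2.04 and -1.76 with no overlap between saline and dexamethasone arrays in any pair. Ifnb1 had no kept probe. The type I ligand genes had no lower call: Ifna2 read 0.52, 0.93, 0.69 and 1.53 (the last passing, adjusted p = 0.019), Ifna5 0.86, -0.45, 0.61 and 1.14, and Ifna12 0.03, 0.00, 0.78 and 0.13, while Ifnl3, an interferon-lambda, read -0.01, -0.51, -0.69 and 0.95. In wild type at 4 h without replicate 49, Ifna5 read 0.47, Ifna12 -0.06 and Ifnl3 -0.37, and none of them passed. Of 10 ligand and receptor genes measured, 3, 2, 3 and 2 were lower and 1, 2, 2 and 3 higher in the 4 comparisons, near the shares of all genes (22.2, 14.3, 17.8 and 17.7% lower, 14.4, 9.23, 24.7 and 24.9% higher). Ifngr2 fell at 4 h (-0.74 and -0.49) and not at 8 h (-0.19 and 0.10), Ifnar1 fell in wild type at 4 h (-0.57) and in the knockout (-0.27 and -0.26), and Ifnar2 in wild type at 8 h (-0.34). Ifngr1 was higher in wild type at 8 h (0.25) and in the knockout (0.57 and 0.52), and Ifnlr1, the receptor chain for interferon-lambda, was higher in all 4 (0.49, 0.38, 0.65 and 0.95).

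Of 23 signalling genes measured, 10, 8, 9 and 8 were lower and 3, 0, 7 and 6 higher, with 10 and 1 in wild type at 4 h without replicate 49. Tyk2 fell by 0.35, 0.33, 0.78 and 0.63. Jak1 was higher by 0.18 in wild type at 4 h (adjusted p = 0.083 without replicate 49) and by 0.31 and 0.22 in the knockout, and Jak2 fell in wild type at 4 h alone (-0.33). The feedback inhibitor Socs1 fell by 1.48, 1.02, 1.43 and 1.03, while Socs3 fell at 4 h by 0.50 and 0.42 and was higher in the knockout at 8 h (0.39). The myeloid and lymphoid factors Irf8 (-1.58, -0.71, -1.77 and -1.01) and Irf5 (-1.37, -1.03, -1.06 and -0.92), the RNA receptor Tlr3 (-0.64, -0.46, -0.75 and -0.75) and the phosphatase Ptpn6 (-1.24, -0.95, -0.83 and -0.73) fell in all 4.

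Interferon-induced genes outside the members followed the same course. Of 27 further type I genes measured, 16, 15, 15 and 15 were lower and 1, 1, 4 and 3 higher, with medians of -0.53, -0.39, -0.42 and -0.42. Without replicate 49, 17 of them were lower and 1 higher in wild type at 4 h. Epsti1 (-1.31, -1.17, -0.97 and -1.17) and Slfn8 (-1.31, -0.99, -1.78 and -1.89) fell in all 4, and Cxcl10, a chemokine for T and natural killer cells, fell by 2.36 and 3.01 at 4 h. Of 23 further interferon-gamma genes, 8, 17, 13 and 14 were lower and 0 higher, with medians of -0.51, -0.61, -1.02 and -0.91, and in wild type at 4 h 15 were lower without replicate 49, with a median of -0.97. Ciita, the master regulator of MHC class II genes, fell by 1.97, 2.37, 2.76 and 2.61, Gbp9 by 1.92, 1.87, 1.83 and 1.96, and the adhesion gene Icam1 by 0.90, 0.49, 1.43 and 1.07.

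Markers of several cell types fell in the same comparisons, those of lymphoid, dendritic and endothelial cells among them. Of 10 natural killer cell markers 10 fell in each of the 4, with medians of -1.72, -2.58, -1.97 and -2.33, and the summary over the 10 ran from -0.65 to 0.34 on saline arrays and from -3.05 to -0.61 on dexamethasone arrays. Nkg7, a cytotoxic granule gene (-1.69, -2.60, -1.33 and -2.04), and Prf1, which encodes perforin (-1.70, -2.65, -1.96 and -2.85), were among them. Of 10 T cell markers 8 fell in each comparison, with a range of -0.39 to 0.35 on saline and of -1.53 to -0.80 on dexamethasone arrays, and of 8 B cell markers 7 fell, with ranges of -0.46 to 0.50 and of -3.09 to -1.05. Of 10 monocyte and macrophage markers 4, 3, 4 and 3 fell and 2, 0, 2 and 3 were higher, and of 8 alveolar type 2 markers 2, 1, 2 and 1 fell and 0, 0, 3 and 2 were higher. Of 8 plasmacytoid dendritic markers 6, 5, 6 and 6 fell (-0.48 to 0.59 on saline and -1.64 to -0.66 on dexamethasone arrays), of 6 conventional dendritic markers 4, 2, 3 and 4 (-0.34 to 0.28 and -1.17 to -0.42), and of 8 endothelial markers 6, 5, 5 and 6 (-0.12 to 0.14 and -0.59 to -0.35). Without replicate 49, 2 monocyte and macrophage markers fell and 2 were higher in wild type at 4 h, and 3 conventional dendritic markers fell. In that fit some markers of the falling lists went the other way. The endothelial markers Cdh5 (0.39) and Ramp2 (0.405) and the plasmacytoid dendritic marker Tcf4 (0.27) were called higher. Cd247, a signalling chain of the T cell receptor that natural killer cells also use, fell by 1.72, 2.03, 1.72 and 2.26. The part of these cells in the change of the interferon-stimulated genes was not tested.

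**Figure D5:**
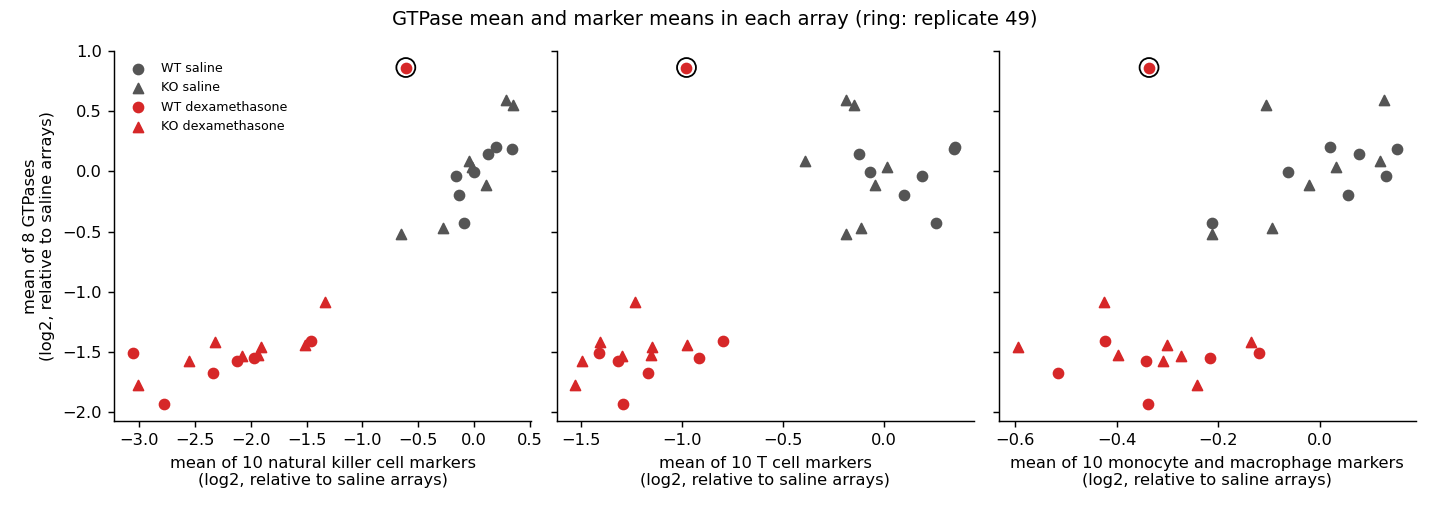
Mean of the 8 GTPases on each array (y axis) against the mean of 10 natural killer cell, 10 T cell, or 10 monocyte and macrophage markers (x axes), in log2 relative to the saline arrays; grey is saline, red dexamethasone, circles wild type, triangles knockout, and the ring marks replicate 49. Apart from the ringed array, saline and dexamethasone arrays differ in GTPase mean in all 3 panels. The ringed array has a GTPase mean of 0.86, above the saline arrays. Its natural killer cell markers are at -0.61, at the low end of the range of all saline arrays (-0.65 to 0.34). Wild-type saline arrays at 4 h run from 0.001 to 0.34.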

How the data were processed

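Per the labels' protocols, Cy3-labelled lung RNA was hybridised to single-colour Agilent 4x44K mouse arrays. The submitters' processing notes name Agilent Feature Extraction 10.6 and the file headers 10.7.3.1. The authors deposited scanner files whose processed signal is an intensity per spot, already background-corrected per the file headers, and a table of log2 values that the authors made from the same arrays by a method not given in the sources used here. In that deposited log2 table the median of a column lay between 8.28 and 8.30, genes were not centred, and the order of the probes followed the array's median signal. The normalization behind it stays unknown, and it was used as an alternative.

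The processed intensity was taken to log2, scaled by subtracting each array's 75th percentile, and stripped of control and outlier spots. Spots of a probe were averaged. Of 41174 probes, 24844 matched 1 RefSeq gene by accession. A probe was kept if 3 or more arrays of some group had it well above background, and each of 15345 genes took its brightest probe. Group means of the 8 groups (29 arrays) were fitted with limma 3.58.1 in R 4.3.3, with Benjamini-Hochberg adjustment over all genes and a threshold of 0.05, and tables were made in Python 3.11.15. The fit was checked on simulated data. 14 comparisons and 13 alternatives were run, besides leaving out each array and values within slides. 43379 spots per array were read.

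The members, gene lists and markers were chosen with earlier results of these data known. All members are named, and the text gives every array for 10 of them by rule (the brightest of each family and those with the lowest p in each dexamethasone comparison) and for Gbp4. Gbp4, and the genes singled out on replicate 49, were chosen after their values were seen. Outside the members, the text names core ligands, receptors and kinases and the genes of each list with the lowest p. Results by gene rest on 1 probe, and 11 members had several kept probes. The values of 1 signalling gene are not reported here.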

Additional observations from a re-analysis of the deposited data

Results flagged for a closer look

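There were 200 sets of 4 arrays, each 1 member or family mean in 1 group. Those of Ifitm3 in wild-type saline and in knockout dexamethasone at 4 h lacked a value and were not tested. In 14 sets the gap of an array to the nearest other exceeded 0.829 of the set's range, a limit that chance passes in about 1 of 20. In 8 of the 14 the far array was replicate 49 of wild-type dexamethasone at 4 h, the highest of its group. It read 2.88 for Gbp2 (others 0.95 to 1.03), 1.86 for Gbp3 (others -0.19 to 0.05), 0.71 for Gbp6 (others -2.60 to -2.27), 3.99 for Igtp (others 1.46 to 1.81) and 2.91 for Iigp1 (others 0.49 to 0.62). It also read -0.22 for Oas2 (others -1.53 to -1.32), -1.23 for Ifi44 (others -2.28 to -2.15) and 0.86 for the mean of the 8 GTPases (others -1.67 to -1.41).

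The other 6 were spread over groups. Isg15 was lowest on knockout dexamethasone replicate 60 at 4 h (-1.17, others -0.71 to -0.64). Rsad2 was highest on knockout saline replicate 48 at 8 h (-0.18, others -0.64 to -0.56) and lowest on knockout dexamethasone replicate 63 at 8 h (-1.05, others -0.16 to 0.01). In wild-type saline at 4 h, Gbp3 was lowest on replicate 35 (1.27, others 1.38 to 1.39) and Gbp6 on replicate 36 (-1.14, others -0.84 to -0.81). Tap1 was highest on knockout saline replicate 47 at 8 h (0.47, others -0.31 to -0.21), the array with the highest Ifng value, -2.63.

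The dexamethasone effect differed between 8 and 4 h by limma's test of the difference for Irf1 (0.65, adjusted p = 0.0213) and Ifit2 (0.40, adjusted p = 0.0299) in wild type and for Ifit3 in the knockout (0.79, adjusted p = 0.00403).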

How the results depend on the processing

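Over the alternatives run for single members, 11192 of 11530 values kept their call or lack of one, 207 lost the call, 123 gained one and 8 reversed. A reversal was counted only where a call was made, so uncalled values that changed sign are among those kept. The dexamethasone counts moved by over 1.5 times only in wild type at 4 h, from 29 calls to 17 with only the groups compared in the fit. Without each array in turn they were 22 to 33 and 24 to 27 in wild type at 4 and 8 h, and 27 to 33 and 27 to 32 in the knockout. The gap between families was -0.93 and -0.85 within slides 3 and 7 in wild type at 4 h. Without each array it was -0.86 to -0.22 and -0.70 to -0.42 in wild type, and -0.67 to -0.58 and -0.72 to -0.50 in the knockout.

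Genotype counts moved most. With dexamethasone at 8 h (2 calls) there was 1 with slide as a fixed block, quantile normalization, median scaling, normexp with quantile, the mean of probes, the dimmest probe or the deposited table, 4 with array weights, 0 with only the groups compared, and 1 to 5 without each array. With saline at 4 h (5 calls) there were 3 with slide as a fixed block, median scaling or only the groups compared, 8 with array weights and 2 to 6 without each array. With saline at 8 h (1 call) there were 3 with slide as a fixed or random block or the mean of probes, 2 with normexp, the filter on all arrays, the dimmest probe or a trended variance, 6 with array weights, and 1 to 2 without each array. With dexamethasone at 4 h leaving out any array gave 0 to 0.

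The genotype difference in the dexamethasone effect (0 calls) gave 2 at 4 h with slide as a fixed block and 1 with it as a random block, quantile, the mean of probes or the dimmest probe, and 1 at 8 h with the dimmest probe or array weights. Without each array it gave 0 to 1 at either time, the 1 coming without wild-type saline replicate 34 at 4 h and without knockout dexamethasone replicate 61 at 8 h. The time difference gave 2 in the knockout (1 call) with slide as a fixed block or array weights, and 1 to 1 without each array. In wild type (2 calls) it gave 5 with slide as a random block, 1 with the mean of probes or the deposited table, 0 with the dimmest probe or only the groups compared, 4 with array weights and 0 to 5 without each array. Saline at 8 against 4 h (0 calls) gave 7 in the knockout with array weights and 0 to 1 without each array (1 without replicates 43 or 47). In wild type it gave 2 with slide as a random block, 1 with normexp, the filter on all arrays, the mean of probes, a trended variance or the deposited table, 5 with array weights, and 0 to 0 without each array.

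The 8 reversals used other probes of the gene. Irf1 in knockout against wild type with saline at 8 h became 0.39 with the mean of probes and 0.84 with the dimmest. With the dimmest probe Trim25 became -0.058 for dexamethasone in the knockout at 8 h and -0.036 for knockout against wild type with dexamethasone at 8 h. Ifih1 became 0.60 for knockout against wild type with saline at 4 h and -0.72 and -0.75 for the genotype difference at 4 and 8 h, and Ifit2 -0.0043 for the time difference in wild type. The cause of these changes was not tested. No paired analysis was possible because the groups compared share no replicate numbers, and arrays were tied only by slide. Slide was fitted as a fixed or random block among the alternatives and was not in the main fit. As a random block, the estimated correlation of arrays within a slide was 0.41.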
